A study of Mus musculus with 2 samples.

Results

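Sim1, Sim2, Arnt2, Arnt and Pou3f2 are 5 transcription factor genes, taken by name from the 31053 gene rows of a single-nucleus RNA-seq matrix of the mouse paraventricular hypothalamus (PVH), and all 5 were present. Their levels were read in neurons defined by the peptide or transmitter genes Oxt, Avp, Crh, Trh, Sst and Gad1, Gad2 or Slc32a1, and in nuclei carrying 1 of 3 hashtag barcodes named Ctrl, KD and Q153R. The study pooled PVH tissue of 17 mice, each 4 weeks old: 7 Sim1-Cre; Sun1-GFP mice, 4 that also carried Otpfl/+ and 6 that also carried OtpQ153R/+. All groups shared the Sim1-Cre driver and the Sun1-GFP nuclear envelope tag, and GFP-positive nuclei were sorted, so every nucleus was selected on present or past Sim1-Cre activity. Otp is a homeobox gene of PVH development, fl marks a floxed allele and Q153R an amino acid change. The Ctrl and Q153R barcodes match genotypes by name, whereas KD was matched to Otpfl/+ by elimination only and is called by its barcode name here. Whether Sim1 counts include transcripts of the Cre transgene is not given in the sources used here.

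SIM1 is a basic helix-loop-helix PAS (bHLH-PAS) protein that binds DNA as a dimer with a general partner, ARNT or its brain-enriched relative ARNT2. In the developing hypothalamus, SIM1 and ARNT2 act upstream of POU3F2 (BRN2), a POU-domain factor needed for the oxytocin, vasopressin and corticotropin-releasing hormone neurons, and SIM1 is also needed for somatostatin and thyrotropin-releasing hormone neurons. SIM2 is the paralog of SIM1 and can pair with the same partners. Loss of 1 copy of Sim1 causes overeating and obesity in mice.

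The library held 6173 barcodes and 42833533 gene UMIs (unique molecular identifiers, 1 per captured transcript), and 6157 barcodes had at least 500 genes and under 5% mitochondrial UMIs. Of these, 4904 carried exactly 1 barcode above the cuts of 105 (Ctrl), 61 (KD) and 37 (Q153R) hashtag UMIs, 1124 carried more than 1 and 129 none. After 118 nuclei with glial markers and 20 nuclei that met more than 1 class rule were set aside, 4766 neurons with a median of 5300 UMIs remained, namely 1892 Ctrl, 1301 KD and 1573 Q153R nuclei with medians of 5398, 6013 and 4672 UMIs. The classes held 133 Oxt, 206 Avp, 104 Crh, 187 Trh, 257 Sst and 213 GABAergic nuclei, and 3666 nuclei met no rule and are called other neurons. Levels are given in CPM, the summed UMIs of a gene per 1000000 summed gene UMIs. An Oxt or Avp nucleus had at least 3000 CPM and 10 UMIs of the peptide. Crh and Trh nuclei had at least 3 UMIs, Sst nuclei at least 5, and GABAergic nuclei at least 3 UMIs over at least 2 of the 3 GABA genes. The GABAergic class was 6.98% of the Ctrl pool's neurons, 4.30% of the KD pool's and 1.59% of the Q153R pool's. All mice share 1 library and each barcode stands for 1 pool, so no p-value is given, and the 95% intervals in brackets cover counting error only.

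Sim1 was highest in Oxt and Avp neurons and nearly absent from GABAergic neurons. Oxt neurons had 973 CPM in the Ctrl, 946 in the KD and 938 in the Q153R pool. Avp neurons had 977, 775 and 757 in the same order. Every pool of both classes lay above every pool of the Trh, Sst, Crh and other neurons, whose highest was 577. The share of all genes for which this holds was not computed. Against all other neurons the Oxt class was 2.20-fold higher (2.05 to 2.35) and the Avp class 1.92-fold higher (1.80 to 2.05). Oxt exceeded Avp by 1.14-fold (1.04 to 1.25) over the pools together, but in the Ctrl pool the ratio was 0.996, so their order is not shared by the pools.

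Below these, Sim1 stood at 563 in Trh, 503 in Sst, 430 in other and 359 in Crh neurons. Trh and Sst neurons differed by 1.12-fold with an interval that starts just above 1, the weakest step in the order, while other neurons were 1.20-fold above Crh neurons (1.03 to 1.39). The Crh ratio to all other neurons was 0.789 (0.677 to 0.914), a log2 of -0.34, beside a median log2 ratio of -0.32 over all genes tested in that class. With the class minimums doubled, the Sim1 ratio was 0.612 (0.446 to 0.819), and 40 of the 104 Crh nuclei had exactly 3 Crh UMIs. Without the KD pool it was 0.867 (0.731 to 1.02), an interval that holds 1. The KD pool had the lowest Sim1 level in Crh neurons at 238, from 33 UMIs in 25 nuclei, against 365 in Ctrl and 464 in Q153R.

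GABAergic neurons had 37.7 CPM of Sim1, 0.0791 of the level in all other neurons (0.0592 to 0.103). Glia, which should lack Sim1, had 18.8 from 6 UMIs. With each nucleus thinned to 2000 UMIs, 3.77% of GABAergic nuclei (1.64 to 7.30) and 2.99% of glial nuclei (0.364 to 10.4) had a Sim1 UMI, so the GABAergic share is not separable from the glial background. By pool the GABAergic level was 25.2 in Ctrl, 36.0 in KD and 118 in Q153R, the last from 17 UMIs in 25 nuclei.

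**Figure D1:**
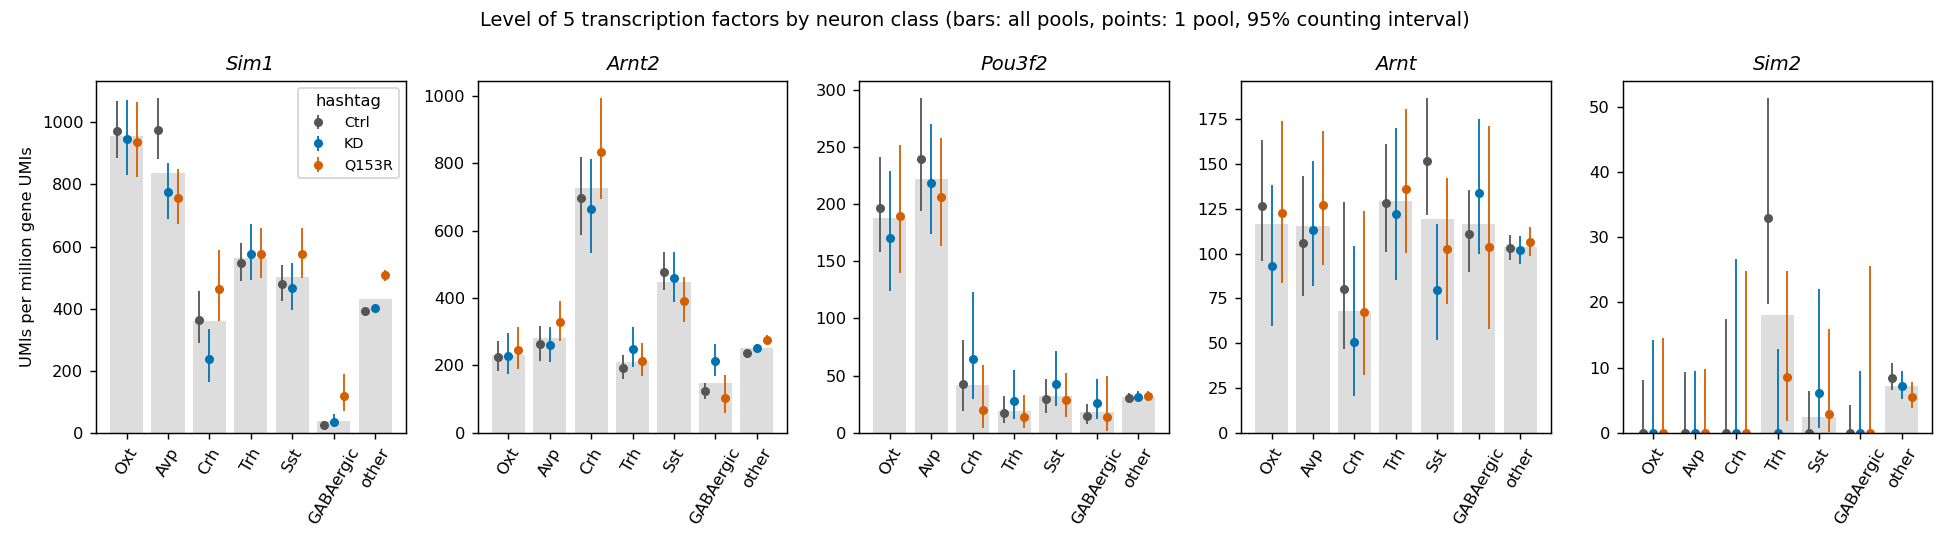
Level of each factor (CPM, linear axes that differ between panels) in 7 neuron classes. Grey bars are all pools together and points are the Ctrl, KD and Q153R pools with 95% counting intervals. Sim1 peaks in Oxt and Avp neurons (957 and 838), Arnt2 in Crh neurons (728) and Pou3f2 in Oxt and Avp neurons (188 and 222), while Arnt is nearly level.

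Arnt2, which encodes the neural dimer partner, followed another order. Crh neurons had 696 in Ctrl, 664 in KD and 834 in Q153R, and Sst neurons had 478, 459 and 391. In each pool the order began with Crh, then Sst, then Avp. Crh neurons were 2.85-fold above all other neurons (2.56 to 3.17) and Sst neurons 1.76-fold above (1.61 to 1.92), and Crh exceeded Sst by 1.62-fold (1.42 to 1.86). The levels of 283 in Avp, 253 in other, 231 in Oxt and 211 in Trh neurons formed a series whose neighbours did not differ beyond counting error. Classes further apart did: Oxt neurons were at 0.818 of Avp neurons (0.687 to 0.972). Trh neurons were at 0.794 of all other neurons (0.698 to 0.899). GABAergic neurons were lowest at 146, but here the pools spread from 104 in Q153R to 213 in KD. Glia held 204, so Arnt2 was not confined to neurons.

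Crh neurons thus had 2.81 times the Arnt2 level of the Oxt and Avp classes together (2.45 to 3.21), with 2.87, 2.69 and 2.83 in the Ctrl, KD and Q153R pools. In the same contrast their Sim1 level was 0.403 (0.344 to 0.470) and their Pou3f2 level 0.204 (0.125 to 0.316) of that in Oxt and Avp neurons. The 3 pools gave 0.374, 0.282 and 0.560 for Sim1 and 0.197, 0.326 and 0.101 for Pou3f2, all below 1.

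Pou3f2 separated Oxt and Avp neurons from all others more sharply than Sim1 did. Avp neurons had 240, 218 and 206 CPM in the Ctrl, KD and Q153R pools, and Oxt neurons 196, 171 and 190. No other class exceeded 64.9 in any pool, a level in Crh neurons of the KD pool from 9 UMIs (29.7 to 123). These are summed levels of pools in 1 library, not of single nuclei. The share of all genes that part these classes in every pool was not computed. The Avp class was 6.13-fold (5.32 to 7.04) and the Oxt class 4.84-fold (4.11 to 5.68) above all other neurons, and Avp and Oxt neurons did not differ beyond counting error (1.18-fold, 0.973 to 1.43). Both classes together stood 6.81-fold above the rest (6.04 to 7.67), and 7.52-fold, 6.18-fold and 6.59-fold in the 3 pools.

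Crh neurons had 42.1, Sst neurons 32.6 and other neurons 31.4 CPM of Pou3f2, levels that did not differ between neighbours. The Crh level rested on 21 UMIs, its ratio to all other neurons was 0.955 (0.589 to 1.47), and the pools ranged from 20.2 in Q153R to 64.9 in KD. Trh neurons at 18.9 (ratio 0.418, 0.264 to 0.630) and GABAergic neurons at 17.8 (ratio 0.390, 0.251 to 0.579) were lowest, and did not differ from each other. Glia held 87.9 from 28 UMIs, above every neuron class but Oxt and Avp, so glial nuclei are no background for this gene.

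The 5 genes lie on different chromosomes in the GENCODE annotation of GRCm38. Sim1 spans chr10:50894754-50989152 and Sim2 chr16:94084931-94127032 on the plus strand, Arnt chr3:95434388-95497240 on the plus strand, Arnt2 chr7:84246278-84410176 on the minus strand and Pou3f2 chr4:22482780-22488366 on the minus strand. Pou3f2 has a single exon, while annotated coding transcripts have up to 11 exons in Sim1 and Sim2, 20 in Arnt2 and 22 in Arnt. An annotated antisense gene, Gm30873, and a small nuclear RNA gene overlap Arnt2, and a processed pseudogene lies within Arnt. Whether counting used strand and introns is not given in the sources used here, so those overlaps could not be separated.

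Since Pou3f2 marked the Oxt and Avp classes, the 250 bases before the start sites of Pou3f2, Oxt and Avp are shown. RefSeq promoter windows (GRCm38.p6) matched 4 of the 5 factors and 7 of the 8 class-defining genes, all but Sim2 and Crh. They were searched on both strands for ACGTG, the core bound by SIM and ARNT dimers, and ATGCAAAT, the octamer bound by POU factors. Capitals mark ACGTG or its reverse complement, each sequence reads 5′ to 3′ on the gene's own strand, and all 3 windows end 1 base before the start site.
Pou3f2, chr4:22488367-22488616, minus strand: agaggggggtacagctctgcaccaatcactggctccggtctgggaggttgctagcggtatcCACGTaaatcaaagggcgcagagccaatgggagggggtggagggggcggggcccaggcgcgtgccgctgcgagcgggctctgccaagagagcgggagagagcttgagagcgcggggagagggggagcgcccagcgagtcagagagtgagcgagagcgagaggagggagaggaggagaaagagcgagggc
Oxt, chr2:130575919-130576168, plus strand: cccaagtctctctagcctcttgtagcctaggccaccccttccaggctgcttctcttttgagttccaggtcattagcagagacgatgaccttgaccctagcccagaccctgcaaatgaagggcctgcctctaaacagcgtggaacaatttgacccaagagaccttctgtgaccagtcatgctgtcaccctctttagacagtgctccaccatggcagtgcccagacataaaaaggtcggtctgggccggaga
Avp, chr2:130582589-130582838, minus strand: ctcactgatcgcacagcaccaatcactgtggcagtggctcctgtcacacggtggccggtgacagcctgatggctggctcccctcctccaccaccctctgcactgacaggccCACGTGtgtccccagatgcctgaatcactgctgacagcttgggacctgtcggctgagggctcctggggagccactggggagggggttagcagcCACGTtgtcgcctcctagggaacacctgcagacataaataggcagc
Of the 11 windows, those of Pou3f2 (1 match) and Avp (3 matches, a pair of which overlap as the palindrome CACGTG) held ACGTG, and none held the octamer. Over all 32851 RefSeq windows of 250 bases, 16.6% held ACGTG and 1.60% the octamer. The matches describe letters in these windows only.

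Arnt, the broadly expressed partner, was close to level. Its class levels ran from 104 in other neurons to 129 in Trh neurons, apart from Crh neurons at 68.2, which were 0.635 of all other neurons (0.439 to 0.890). Crh neurons were lowest in each pool, with 80.5, 50.5 and 67.3 in Ctrl, KD and Q153R from 17, 7 and 10 UMIs. The log2 ratio of -0.65 compares with the median of -0.32 over all genes in that class. The other 6 classes did not differ between neighbours in the order, though Trh neurons were 1.22-fold above all other neurons (1.03 to 1.44). Glia held 151.

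Sim2 was rare, with 173 UMIs in 133 of the 4766 neurons and at most 3 in 1 nucleus. No Sim2 UMI was found in Oxt, Avp, Crh or GABAergic neurons or in glia, where 3 counts would stand for 3.10, 2.58, 6.02, 2.13 and 9.42 CPM. Trh neurons held 18.1 CPM, 3.12-fold above all other neurons (1.90 to 4.90), with 32.9 in Ctrl, 0 in KD and 8.51 in Q153R. Of the 22 UMIs, 19 were from Ctrl nuclei, and without that pool the ratio was 0.867 (0.175 to 2.62), so the Trh difference rests on the Ctrl pool. Other neurons held 148 of the 173 UMIs at 7.14 CPM, with 8.43, 7.11 and 5.56 in the 3 pools.

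Neurons with a UMI of Qrfpr or Crhr2 had 31.9 CPM of Sim2 against 4.01 in neurons without, a 7.96-fold difference (5.81 to 10.9). These receptor genes mark a PVH population that was already grouped with Sim2 in earlier results of these same data. The difference therefore follows in part from that choice and is not independent support. The 133 neurons with a Sim2 UMI had a Sim1 level of 460 against 453 in those without (ratio 1.02, 0.920 to 1.12). Their Arnt2 level was 0.636 of the others (0.540 to 0.744), at 170 against 267. Sim2 transcripts thus lay in neurons with ordinary Sim1 and low Arnt2 levels.

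At the class level, counts of factors past 1.5-fold in either direction can be set beside the same share over all genes with at least 200 UMIs. That minimum, which 4 of the 5 factors met, is over the class and all other neurons together. In a small class many genes thus rest on few UMIs and can pass the fold by counting error. How much of each share this makes up is not given here. In the Oxt class 2 of 4 factors were past it, beside 25.9% of 10460 genes, and in the Avp class 2 of 4 beside 28% (Sim1 and Pou3f2 in both). In the Crh class, the smallest, 2 of 4 were past it, Arnt2 up and Arnt down, beside 47.9% of genes. The count there is no more than that share, which says nothing of the size of either ratio. Arnt2 had 363 UMIs in Crh neurons (2.85-fold, 2.56 to 3.17) and Arnt 34. In the Trh class it was 1 of 4 beside 12.2% (Pou3f2, lower), in the Sst class 1 of 4 beside 20.9% (Arnt2, higher) and in the GABAergic class 3 of 4 beside 12.4% (Sim1, Arnt2 and Pou3f2, lower).

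Levels were then followed across bins of each peptide gene among neurons outside the GABAergic class. Arnt2 was higher in each successive Crh bin, at 242 in neurons with no Crh UMI, 457 with 1 or 2, 664 with 3 to 5 and 887 with 6 or more, and no neighbouring intervals overlapped except those of the top pair. Sim1 went the other way at the top, at 479, 475, 401 and 256. The 398 nuclei with 1 or 2 Crh UMIs are outside the Crh class by its rule, so the Arnt2 difference was not limited to that class.

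Pou3f2 showed a step along Oxt and Avp. Among nuclei with at least 2000 UMIs it was 37.1 below 1000 CPM of Avp, 66.8 between 1000 and 3000, 211 between 3000 and 10000 and 236 above that. Along Oxt it was 39.8, 67.9, 191 and 189, and for each peptide the intervals of the 2 highest bins overlapped. Sim1 was higher in each successive Oxt bin, at 458, 586, 863 and 1113.

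The 77 nuclei with 1000 to 3000 CPM of Avp did not lie between their neighbours in Arnt2 or Sim1. Their Arnt2 level of 565 was above both the 266 of the bin below and the 296 of the bin above, and their Sim1 level of 364 was below both (463 and 869). The Crh class itself held 377 CPM of Avp, more than the 95.9 to 261 of the other non-Avp classes.

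**Figure D2:**
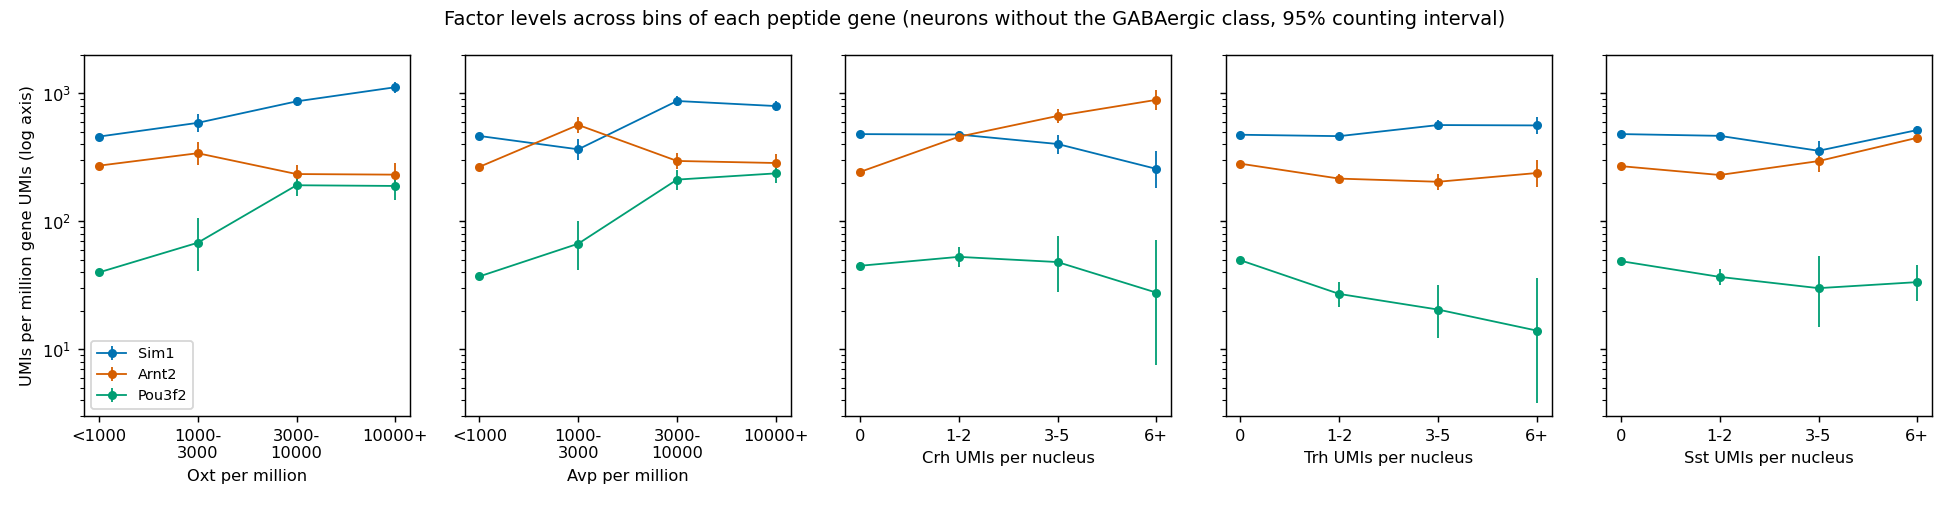
Levels of Sim1, Arnt2 and Pou3f2 (CPM, log axis, 95% counting intervals) in 4 bins of each peptide gene, in neurons outside the GABAergic class. Arnt2 climbs from 242 to 887 along Crh, and Pou3f2 steps from about 40 to about 190 or more at 3000 CPM of Oxt or Avp.

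Joint detection was compared after thinning 4433 neurons to 2000 UMIs each, which left out 333 shallower ones. At that depth Sim1 had a UMI in 49.1% of neurons, Arnt2 in 37.2%, Arnt in 17.9%, Pou3f2 in 7.40% and Sim2 in 1.04%, against 67.8%, 61.0%, 39.0%, 15.1% and 2.79% without thinning and over all neurons. Sim1 was found in 82.8% of Oxt (75.1 to 88.9), 74.5% of Avp (67.6 to 80.5) and 44.4% of Crh neurons (34.5 to 54.8). Arnt2 was found in 71.7% of Crh (61.8 to 80.3), 56.5% of Sst and 38.3% of Oxt neurons, beside 29.9% of glia.

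Pou3f2 had a UMI in 38.3% of Avp (31.3 to 45.7) and 29.7% of Oxt neurons (21.9 to 38.4), and in 2.83% to 6.06% of the nuclei of each other class. Of the 328 nuclei with a Pou3f2 UMI, 22.0% were Avp and 11.6% Oxt neurons, classes that hold 4.24% and 2.89% of the thinned nuclei. A further 57.6% lay among other neurons, which hold 76.3%, so a Pou3f2 UMI is not limited to neurons with either peptide.

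All 3 of Sim1, Arnt2 and Pou3f2 were detected together in 16.5% of Avp (11.5 to 22.6) and 13.3% of Oxt neurons (7.93 to 20.4). The share was 1.70% in Trh, 1.24% in other, 1.01% in Crh and 0.407% in Sst neurons, and 0 of 212 GABAergic nuclei, which allows up to 1.42% by a limit of 3 counts, beside a Clopper-Pearson upper bound of 1.72%. Sim1 with Arnt2, whether or not Pou3f2 was also detected, was found in 38.3% of Avp, 35.2% of Oxt, 31.7% of Sst and 30.3% of Crh neurons. Those shares have overlapping intervals and include the nuclei with all 3. In Trh neurons the share was 15.9%, and in GABAergic neurons 1.42%.

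**Figure D3:**
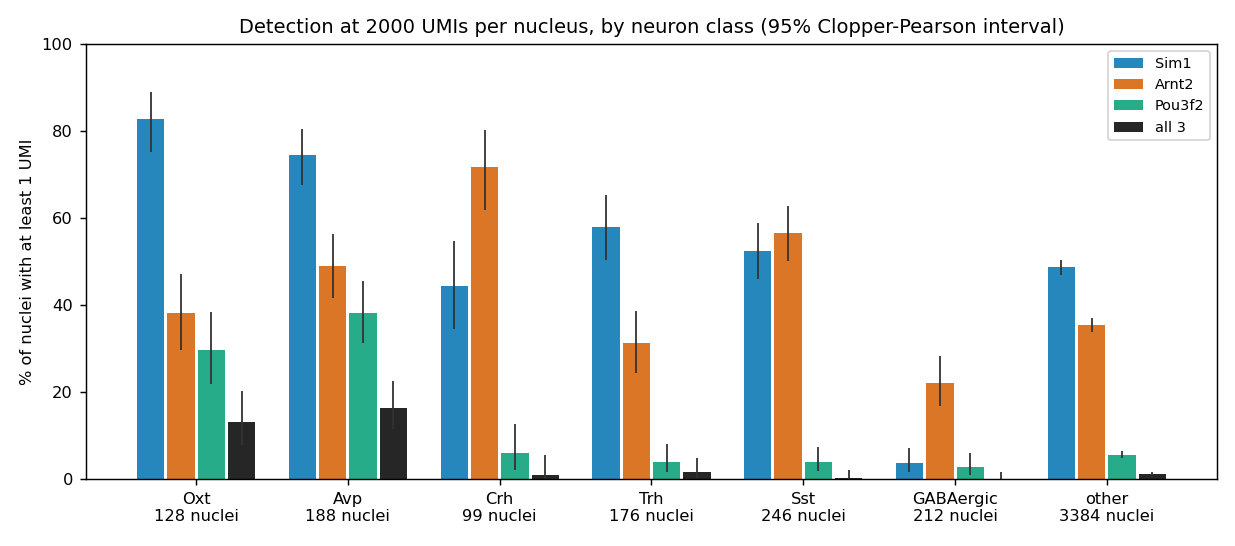
Share of nuclei with at least 1 UMI of Sim1, Arnt2, Pou3f2 or all 3 after thinning to 2000 UMIs (percent, 95% Clopper-Pearson intervals), by neuron class. All 3 were found together in 16.5% of Avp and 13.3% of Oxt neurons and in at most 1.70% of any other class.

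Within nuclei, Sim1 and Pou3f2 were found together in 4.65% of neurons, beside 3.63% if they were independent, an odds ratio of 1.83 (1.44 to 2.33). Compared within classes by the Mantel-Haenszel method it was 1.31 (1.02 to 1.68), so the association was weaker within classes than over them. The intervals in this paragraph belong to 1 random draw and leave out the spread between draws. A lower end of 1.02 therefore does not by itself set the within-class value apart from 1. Averaged over all possible draws of 2000 UMIs, the pooled and within-class values for Sim1 and Pou3f2 were 1.73 and 1.28. Sim1 and Arnt2 had an odds ratio of 1.14 (1.01 to 1.29), which was 1.06 (0.935 to 1.21) within classes. Over all draws the within-class value for these dimer partners was 1.11. For Arnt2 and Pou3f2 the values were 1.33 (1.05 to 1.68) and 1.22 (0.957 to 1.55).

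Between pools, the factors were compared first over neurons summed together and then within classes, some of which differed more. In neurons outside the GABAergic class, the Ctrl, KD and Q153R levels were 454, 443 and 539 for Sim1, 258, 266 and 290 for Arnt2, 108, 101 and 109 for Arnt, and 46.0, 46.1 and 44.4 for Pou3f2. Of the 4 factors with at least 200 UMIs, none was past 1.5-fold in KD against Ctrl, where 0.705% of 9076 genes were, in Q153R against Ctrl, where 0.671% of 9085 were, or in Q153R against KD, where 1.16% of 8584 were. With shares that low, finding none among 4 genes does not set the factors apart from other genes. Otp itself stood at 50.6, 79.6 and 114. Its ratio to Ctrl was 1.57 in KD (1.40 to 1.77) and 2.25 in Q153R (2.01 to 2.51), both past the fold. The pool named KD thus held more Otp transcript counts than Ctrl, and the reason was not tested. The contrasts against Ctrl share that pool. Sim2, below that minimum, is given separately.

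Pou3f2 did not differ beyond counting error in KD (interval of the ratio 0.872 to 1.15) or Q153R (ratio 0.966, 0.838 to 1.11) relative to Ctrl, and none of its class ratios had an interval that excluded 1. The spread between mice within a pool is not measured. Arnt was at 0.935 (0.853 to 1.02) in KD and did not differ in Q153R (0.917 to 1.10), but in Sst neurons the level was 79.5 in KD and 152 in Ctrl, which gives 0.524 (0.325 to 0.819).

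Sim1 in KD was 0.974 of Ctrl (0.932 to 1.02), and 0.653 in Crh neurons (0.420 to 0.993). In Q153R it was 1.19-fold higher (1.14 to 1.24). Of 7 classes 5 were above 1, while Avp and Oxt neurons were below. The ratios in Crh (1.27, 0.906 to 1.79), Sst (1.20, 0.997 to 1.44) and Trh neurons (1.05, 0.878 to 1.26) had intervals that hold 1. Other neurons had 391 in Ctrl and 508 in Q153R, a ratio of 1.30 (1.23 to 1.36). Avp neurons had 977 and 757, a ratio of 0.775 (0.663 to 0.905), beside a KD ratio of 0.794 (0.680 to 0.925), and Oxt neurons 973 and 938, a ratio of 0.964 (0.820 to 1.13). GABAergic neurons, outside that sum, had 25.2 and 118, a ratio of 4.68 (2.33 to 9.23) from 22 and 17 UMIs. The ratio in other neurons was 1.67 times that in Avp neurons (1.43 to 1.97), an interval for counting error between single pools.

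The makeup of the other neurons also moved between pools. Nuclei there with a UMI of Gad1, Slc32a1, Dlx1, Dlx2, Dlx5, Dlx6 or Dlx6os1, genes of GABAergic neurons, were 10.9% in Ctrl, 8.01% in KD and 4.78% in Q153R, and their Sim1 level was 145, 209 and 304. Without these nuclei the Q153R ratio was 1.23 in other neurons (1.17 to 1.29) and 1.13 over neurons outside the GABAergic class (1.08 to 1.18). Nuclei with at least 3 Xist UMIs and no Y-linked UMI were 67.1% of Ctrl, 80.6% of KD and 47.4% of Q153R neurons outside the GABAergic class, and among them the Sim1 ratio was 1.13 (1.07 to 1.20). How far makeup and sex enter the pool difference was not tested.

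Arnt2 in KD was 1.03 of Ctrl (0.972 to 1.09) and in Q153R 1.12-fold higher (1.06 to 1.19). Only other neurons had an interval above 1 in the Q153R contrast (1.16-fold, 1.09 to 1.24), while Sst neurons had 0.817 (0.661 to 1.01). In the GABAergic class KD was 1.73-fold above Ctrl (1.28 to 2.32). Sim2 in Q153R was 0.593 of Ctrl (0.395 to 0.877), with 39 UMIs against 85, of which 19 were the Ctrl Trh nuclei described above.

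**Figure D4:**
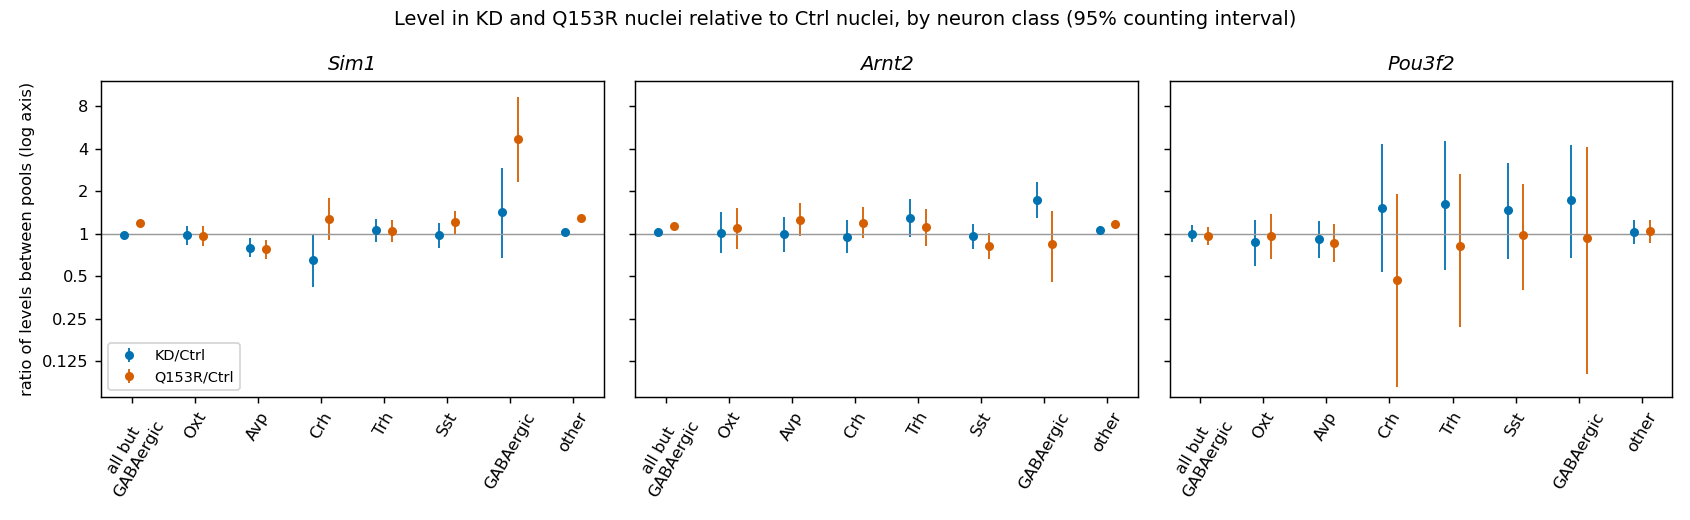
Ratio of levels in KD and Q153R nuclei to Ctrl nuclei (log axis, 95% counting intervals) for Sim1, Arnt2 and Pou3f2, over all neurons outside the GABAergic class and in each class. Sim1 in Q153R is above 1 in other neurons (1.30) and below 1 in Avp neurons (0.775), and the Pou3f2 intervals all hold 1. Sim1 is also at 4.68 in GABAergic neurons in Q153R, from few UMIs, and at 0.653 in Crh neurons in KD.

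Relatives of the 5 factors were described by 3 lists: 22 bHLH-PAS genes, 15 POU genes and 10 PVH development genes, with 17, 5 and 3 tested in the class contrasts. In Oxt neurons 1 of 17 bHLH-PAS genes was past 1.5-fold upward, Sim1 itself, and 5 downward, beside 25.9% of all genes in either direction. In Avp neurons 2 were higher and 5 lower, beside 28% of all genes, and the median log2 ratio was -0.33 beside -0.02 for all genes. Npas3, a bHLH-PAS factor of forebrain development, stood at 31.8 in Avp neurons against 572 in all other neurons (ratio 0.0556, 0.0392 to 0.0767). It was also lower in Crh (0.144), Sst (0.336) and Oxt neurons (0.433), and stood at 1.04 in Trh and 0.815 in GABAergic neurons. A relation to the factors was not tested. Npas2, a partner of the clock factor BMAL1, was at 0.0950 in Avp and 0.419 in Oxt neurons and 1.83-fold higher in Trh neurons.

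Among POU genes, 2 of 5 were higher in both Oxt and Avp neurons, where 25.9% and 28% of all genes were past the fold in either direction. They were Pou3f2 itself and the widely expressed octamer-binding factor Pou2f1 (1.65-fold and 1.56-fold). Pou2f2 went the other way in Avp neurons (0.472, 0.319 to 0.673), and was also lower in Crh (0.468) and Sst neurons (0.652). Pou6f1 was 1.84-fold higher in Crh neurons (1.43 to 2.33). Pou3f4, another class III POU gene, had 99 UMIs in all and was below the minimum.

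In the Crh class 5 of 17 bHLH-PAS genes were higher and 6 lower, where 47.9% of all genes were past the fold, including the p160 coactivator Ncoa2 (1.56-fold) and Arntl, which encodes BMAL1 (0.273, 0.0998 to 0.595). In Sst neurons Ncoa1 was 1.60-fold higher (1.47 to 1.74). In GABAergic neurons all 3 tested PVH development genes were lower, where 12.4% of all genes were past the fold in either direction. Otp was at 0.0994, Uncx at 0.170 and Nhlh2 at 0.209 (0.0427 to 0.616, from 3 UMIs), beside Sim1 at 0.0791. Between pools, Npas4, an activity-induced bHLH-PAS factor, was 1.58-fold higher in Q153R than in Ctrl (1.35 to 1.85). No other bHLH-PAS gene with at least 200 UMIs was past the fold in either contrast against Ctrl. Over all genes the shares past it were 0.705% in KD and 0.671% in Q153R against Ctrl.

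**Figure D5:**
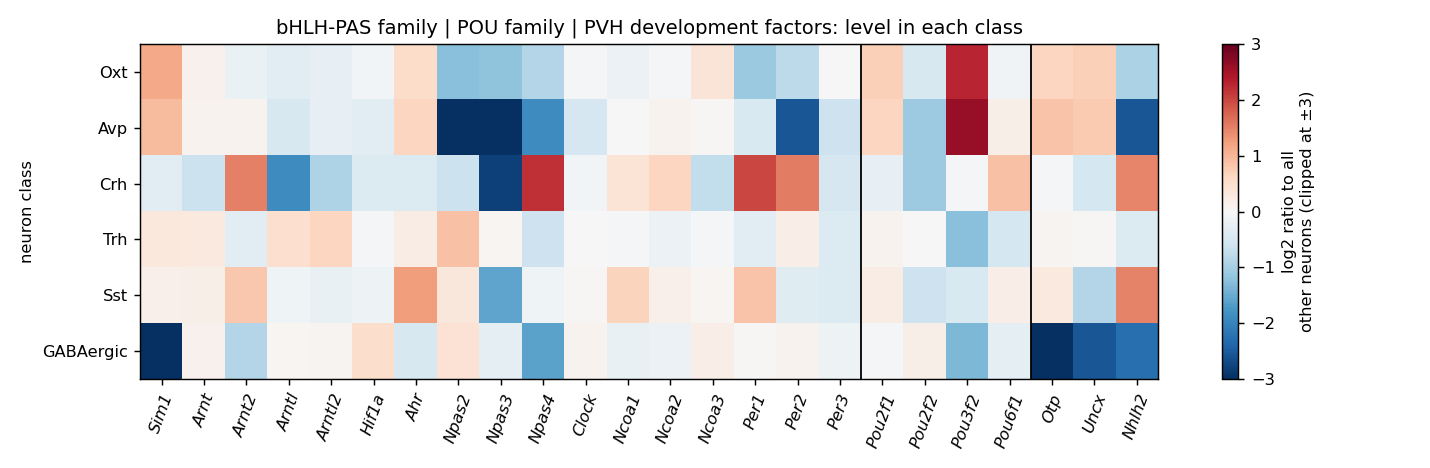
Log2 ratio of each class (rows) to all other neurons for tested genes of the bHLH-PAS family, POU family and PVH development lists (columns, in that order, separated by lines). Red is higher and blue lower, with the scale clipped at 3. Sim1 and Pou3f2 are high in Oxt and Avp neurons, and Arnt2 is high in Crh and Sst neurons. Npas3 is low in Oxt, Avp, Crh and Sst neurons.

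Genes with the most similar pattern were ranked by Pearson's r of log2(level + 5) over 21 points, 7 classes by 3 pools that share 1 library, among 7236 genes with at least 500 UMIs. Nearest to Pou3f2 were Pde4b, a cyclic AMP phosphodiesterase (r = 0.94), Spata6 (0.92), Arfgef3 (0.91), Dpp6, a potassium channel subunit (0.90), and Pvt1 (0.89). Pde4b stood at 6434 in Avp and 4170.5 in Oxt neurons and at most 1956 elsewhere. Nearest to Sim1 were Otp (0.88), Slc17a6, the vesicular glutamate transporter of these neurons (0.83), Nell2 (0.81), Unc5c (0.80) and Kif9 (0.79). Slc17a6 was low in GABAergic neurons (13.5). It was lower in Oxt (112) and Avp neurons (107) than in other (145) and Crh neurons (150), an order opposite to that of Sim1. Nearest to Arnt2 were Tspan5 (0.92), Zbtb20 (0.91), Fbxo28 (0.88), Vapa (0.88) and Zc3h12c (0.87).

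Between the factors themselves r was 0.58 for Sim1 and Pou3f2, 0.31 for Sim1 and Arnt2, and -0.58 for Arnt2 and Arnt. Over the 18 points without the GABAergic class, r for Sim1 and Arnt2 was -0.58 and 0 of 5 nearest genes were shared for either gene. Pou3f2 kept 3 of 5 (Pde4b, Pvt1 and Arfgef3).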

How the data were processed

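Single-nucleus RNA-seq of sorted PVH nuclei was deposited as 1 matrix of raw UMI counts with 3 hashtag rows. Per the submitters' processing notes, the authors made these counts with Cell Ranger 6.0.0 on mm10, while the deposited file header names version 7.0.0. Neither annotation nor intron setting is given in the sources used here.

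Computed here: nuclei were filtered, assigned to pools and classes by the rules in the report, and UMIs were summed and divided by all gene UMIs. Levels carry exact Poisson, ratios exact conditional binomial and shares Clopper-Pearson 95% intervals. The 2 deposited samples are the expression and hashtag libraries of the same nuclei, so nothing was tested between samples. Nuclei with more than 1 tag were removed as likely doublets, and doublets within a pool remain. Nuclei of several classes were also set aside, and whether those are doublets was not tested. Depth ran from 565 to 21844 UMIs per neuron. Python 3.11.15, numpy 2.4.6, scipy 1.17.1, pandas 2.3.3 and scikit-learn 1.9.0 were used, and the ratio code was tested on simulated data.

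The 5 genes and all lists were chosen with earlier results of these data known. Besides the 5 genes, the text names list genes past 1.5-fold with an interval that excludes 1, at most the 6 with the most UMIs per comparison, and the 5 genes most like Sim1, Arnt2 and Pou3f2. Alternatives to class minimums, depth, doublets, pools and thinning were run. 1 gene of the POU list is not reported here.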

Additional observations from a re-analysis of the deposited data

How the results depend on the processing

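No paired analysis was possible because all nuclei come from 1 library and each tag stands for 1 pool. Of 99 main class values under alternatives, 85 moved by less than counting error, 13 by more and 1 reversed. The reversal was Sim2 in Trh neurons, 0.867 without the Ctrl pool. Without Ctrl nuclei and without Q153R nuclei, Sim1 was 2.04 and 2.40 in Oxt and 1.66 and 2.18 in Avp neurons, and Arnt2 1.58 and 1.93 in Sst neurons. Arnt2 in Crh neurons was 3.20 with doubled minimums. Sim1 in GABAergic neurons was 0.121 with halved minimums, 0.0279 with doubled ones, 0.115 with nuclei of several classes counted, 0.0417 without the deepest nuclei, 0.0279 without neighbour-marked doublets and 0.119 without Ctrl. The cause was not tested.

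Between pools, Sim1 in KD against Ctrl was 0.921 in nuclei with a Sim1 UMI and 1.02 without neighbour-marked doublets. The former set is chosen on the gene measured and on depth, so its Sim1 ratios do not bear on makeup. In Q153R against Ctrl it was 1.27 over all neurons, 1.07 in nuclei with a Sim1 UMI, 1.13 in nuclei with Xist and no Y-linked UMI, and 1.13 without nuclei holding a GABAergic gene UMI. Leaving those nuclei out, and averaging over all draws, were chosen after seeing the data. Arnt2 in Q153R was 1.06 in nuclei with a Sim1 UMI, and among Xist nuclei Arnt was 0.878 and Pou3f2 1.14. With a deeper thinning the odds ratio was 1.45 for Sim1 with Arnt2 and 2.38 for Sim1 with Pou3f2. The within-class value of 1.31 for Sim1 with Pou3f2 belongs to the main thinning depth, and none is given here for the deeper one. Arnt2 with Arnt changed sides at another seed (1.17) and is not reported as a result. Without the GABAergic class, 0 of 5 nearest genes were shared for Sim1, 0 for Arnt2 and 3 for Pou3f2.

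With 2-fold in place of 1.5-fold, the share of all genes past it was 10.7% in Oxt, 14% in Avp, 27.2% in Crh, 3.51% in Trh, 8.52% in Sst and 3.86% in GABAergic neurons, and 0.0881%, 0.143% and 0.175% in KD against Ctrl, Q153R against Ctrl and Q153R against KD. With genes of at least 50 UMIs it was 21.7% in Trh and 21% in GABAergic neurons, and 3.82%, 3.8% and 4.28% in the pool contrasts. Depth limits Sim2, with 173 UMIs in all, and Pou3f2 in Crh neurons, with 21.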

Other observations

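Npas4, an activity-induced bHLH-PAS gene, was chosen for mention in Crh neurons after its values were seen. It stood there at 144 CPM against 31.6 in all other neurons, a ratio of 4.58 (3.55 to 5.83), from 72 UMIs in 104 nuclei. It was lower in Avp neurons, at 9.45 against 34.7 (0.272, 0.135 to 0.490).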
